A study of Mus musculus with 20 samples.

Results

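The genes described here are 54 protein-coding genes of mitosis and chromosome segregation, found in 54 of the 25219 gene rows of an RNA sequencing table of mouse adipose tissue. They were chosen by symbol for their place in cell division, with earlier results of these data known. Counts of them that changed are therefore a description and not an independent test. The list comprises 2 genes used to mark cycling cells, CDK1 with its cyclins, the mitotic kinases, the chromosomal passenger complex, the spindle checkpoint, anaphase and exit factors, centromere and kinetochore proteins, mitotic kinesins, condensin, spindle assembly factors and cytokinesis proteins. The genes lie on 18 chromosomes, and all 54 passed the filter on low counts in every comparison. The table holds 20 libraries of inguinal white adipose tissue (iWAT) and brown adipose tissue (BAT), 5 from each tissue of Control and Ai-α4KO male mice.

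Ai-α4KO mice carried floxed alleles of α4, the gene Igbp1, which encodes a subunit that binds and protects catalytic subunits of the protein phosphatase 2A family, together with the tamoxifen-inducible recombinase Adiponectin-CreERT2. Control mice, named WT in the labels, had the same floxed alleles and no Cre, on a mixed C57Bl/6 background. All animals of both genotypes received tamoxifen at 100 mg/kg, injected 5 times within 6 days from 2 months of age, and tissue was taken about 1 week after recombination. Adiponectin drives the Cre in adipocytes, so other cells of the depot kept the gene, and the Control mice do not control for Cre itself. The labels do not tell whether both depots came from one mouse or whether libraries were separate animals, so p-values measure the spread between these libraries.

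Mitotic genes are transcribed mostly in the G2 and M phases and are nearly silent in cells that have left the cycle, as mature adipocytes have. CDK1 with cyclin B starts mitosis, kinetochores join chromosomes to spindle microtubules, and the spindle checkpoint holds the anaphase-promoting complex until all are attached, after which separase cuts cohesin and the cell divides. In adipose tissue, dividing cells are known mainly among progenitors, endothelial cells and immune cells, macrophages included. Many promoters of these genes carry a cell cycle genes homology region (CHR), TTTGAA or less often TTTAAA, bound by MuvB complexes, downstream of CCAAT boxes bound by NF-Y.

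The promoters of 5 genes are shown because 4 of them (Cdk1, Ccnb2, Mki67 and Hmmr) rose in Ai-α4KO fat of both depots while the fifth, Bub3, did not meet the thresholds in either. Each line gives the 250 bases before the RefSeq start on build GRCm38.p6, written 5′ to 3′ on the strand of the gene, with capitals for matches on either strand. The motifs searched were TTTGAA and its second form TTTAAA for the CHR, CCAAT for NF-Y (read as ATTGG where it lies on the opposite strand), and for E2F the form TTCCCGC and the form TTGGCGC. The windows are Cdk1 at chr10:69352913-69353162, minus strand, Ccnb2 at chr9:70421555-70421804, minus strand, Mki67 at chr7:135716380-135716629, minus strand, Hmmr at chr11:40733438-40733687, minus strand and Bub3 at chr7:131560120-131560369, plus strand.
Cdk1: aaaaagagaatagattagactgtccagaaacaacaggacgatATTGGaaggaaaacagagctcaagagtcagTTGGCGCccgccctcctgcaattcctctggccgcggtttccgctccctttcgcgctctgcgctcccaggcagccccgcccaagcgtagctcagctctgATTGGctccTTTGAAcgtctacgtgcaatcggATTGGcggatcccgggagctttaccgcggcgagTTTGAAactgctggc
Ccnb2: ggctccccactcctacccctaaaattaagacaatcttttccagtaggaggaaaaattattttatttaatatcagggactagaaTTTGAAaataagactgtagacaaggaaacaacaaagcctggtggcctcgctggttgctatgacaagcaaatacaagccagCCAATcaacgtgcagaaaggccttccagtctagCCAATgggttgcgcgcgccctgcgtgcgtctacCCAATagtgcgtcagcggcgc
Mki67: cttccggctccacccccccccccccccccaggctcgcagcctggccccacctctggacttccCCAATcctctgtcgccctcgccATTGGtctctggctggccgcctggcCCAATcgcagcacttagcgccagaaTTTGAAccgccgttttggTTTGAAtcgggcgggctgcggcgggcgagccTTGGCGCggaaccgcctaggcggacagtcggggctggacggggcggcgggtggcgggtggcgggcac
Hmmr: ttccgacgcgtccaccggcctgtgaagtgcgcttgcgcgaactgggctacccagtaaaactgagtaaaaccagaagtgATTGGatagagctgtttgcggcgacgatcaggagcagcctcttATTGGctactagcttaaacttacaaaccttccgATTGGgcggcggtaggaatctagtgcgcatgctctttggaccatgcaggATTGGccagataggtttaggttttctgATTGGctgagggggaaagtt
Bub3: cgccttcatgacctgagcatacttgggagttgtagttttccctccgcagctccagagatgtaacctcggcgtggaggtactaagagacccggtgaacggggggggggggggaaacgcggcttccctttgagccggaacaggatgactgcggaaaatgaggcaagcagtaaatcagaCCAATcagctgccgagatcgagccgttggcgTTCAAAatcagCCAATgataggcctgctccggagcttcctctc

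Cdk1, Ccnb2 and Mki67 each had 3 CCAAT boxes in the bases shown, and Hmmr had 5. Cdk1 and Mki67 each had 2 CHR matches in these bases, Ccnb2 had 1 and Hmmr had 0, and the match of Ccnb2 lay upstream of its CCAAT boxes, not downstream. Ccnb2 and Hmmr each had a CHR match within the 50 bases past the start, which are not shown. Bub3 had 2 CCAAT boxes and a CHR between them in the window shown, the first of its 2 windows. Over longer windows that run 50 bases past the start, RefSeq held 47 of the 54 genes. Tpx2, Spc24, Smc4, Incenp, Ccna2, Aurkb and Kif20a were not among them. A gene was counted if any of its windows held the motif, and Bub3, Cenpk, Ect2 and Prc1 had more than 1 window. A CHR of either form was present in 37 of the 47 genes (78.7%), beside 30.6% of all 27025 genes with a window of this length. TTTGAA alone was in 72.3% of the mitosis genes and 20.2% of all genes. CCAAT was found in 74.5% against 41.1%, and CHR together with CCAAT in 66.0% against 12.2%. An E2F form was in 12 of the 47 genes (25.5%), beside 7.8% of all genes. These are matches of letters, searched on both strands, where an ATTGG may overlap a TTGGCGC, and they are not evidence of binding. Pttg1, the other gene that met the thresholds in neither depot, had none of these motifs in its window, whose start lay away from the start given for the gene in the deposited table. Of the 47 genes, 42 had a window that began within 25 bases of the start in that table.

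**Figure D1:**
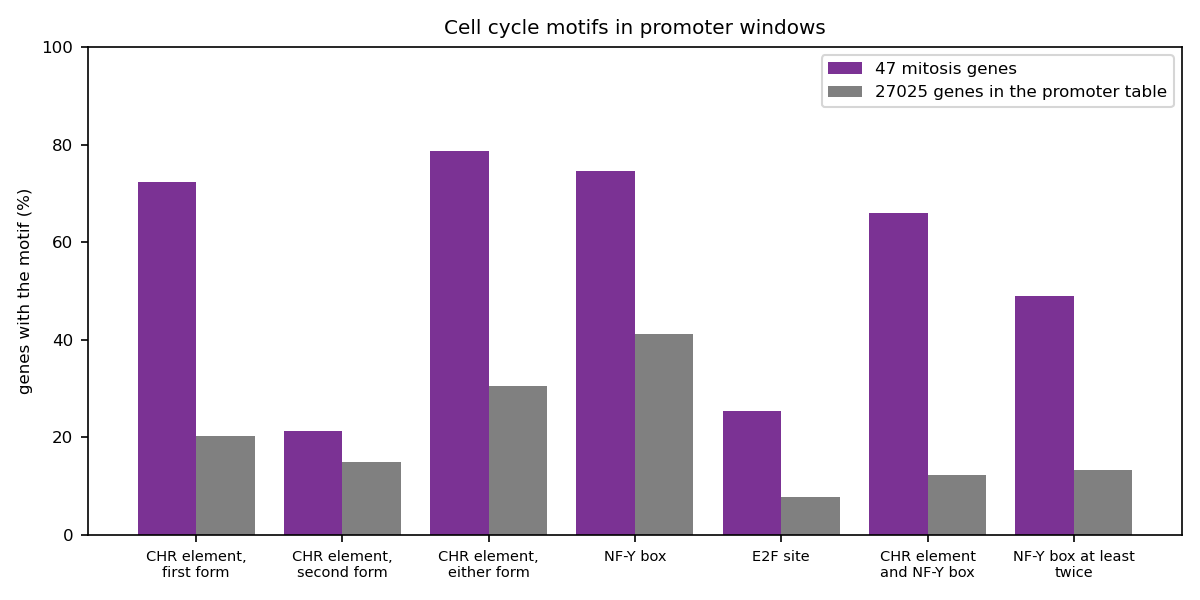
Share of genes with each motif in the RefSeq promoter window (y axis, percent), for the 47 mitosis genes with a window (purple) and for all 27025 genes in the promoter table (grey). The first form of the CHR is TTTGAA and the second TTTAAA, and the CHR together with the NF-Y box stands at 66.0% against 12.2%.

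Libraries held 24023371 to 50384446 counts. Igbp1, the targeted gene, ranged from 57.5 to 76.6 CPM, the counts scaled to a common library total of 1000000, in Control iWAT and from 10.1 to 11.1 in Ai-α4KO iWAT, and from 85.4 to 105.0 in Control BAT and from 13.7 to 25.2 in Ai-α4KO BAT. Its log2 fold change was -2.65 ± 0.09 (SE, n = 5 libraries a group) in iWAT and -2.50 ± 0.17 in BAT, with p = 0.0079 in each tissue by an exact two-sided permutation test, the smallest that 252 arrangements allow. Adipocyte markers were abundant in every group. Markers of B cells summed to 627 and 250 CPM in Control iWAT libraries 1 and 4 and to 15.1 to 17.0 in the other 3 libraries of that group. Markers of skeletal muscle summed to 7438 CPM in Control iWAT library 4 and 5818 CPM in Ai-α4KO iWAT library 1, against 24.3 to 219 in the other iWAT libraries, and ran from 1039 to 9935 in Control BAT and from 13880 to 46080 in Ai-α4KO BAT.

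Mitosis genes rose nearly throughout the list in iWAT of Ai-α4KO mice. Of the 54 genes, 52 were higher and 0 lower at an adjusted p below 0.01 by edgeR's quasi-likelihood test and at least a 2-fold change. Among all 14604 genes tested, 11.3% were higher and 10.7% lower by the same rule. The median log2 fold change of the 54 genes was 2.28, beside 0.01 for all genes, and 36 of them rose at least 4-fold, as did 4.19% of all genes. All 5 Ai-α4KO libraries lay above all 5 Control libraries for 52 genes (20.7% of all genes). Beside the count of 0 lower, 0 mitosis genes were lower at an unadjusted p below 0.05 (28.8% of all genes), and DESeq2 likewise found 0.

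In BAT, 48 of the 54 genes were higher and 0 lower, where 18.2% of 14344 genes were higher and 13.3% lower. The median log2 fold change of the list was 2.54, beside -0.03 for all genes. At least 4-fold increases were seen for 38 genes (10.7% of all genes), and the libraries of both genotypes did not overlap for 51 (24.7% of all genes). At an unadjusted p below 0.05, 1 gene, Pttg1, was lower (34% of all genes), and DESeq2 with the same thresholds gave 0. The 48 genes that rose in BAT all rose in iWAT too. Cks2, Mad2l1, Cenpk and Cenpn met the thresholds in iWAT only, and Bub3 and Pttg1 in neither. In these bulk samples more cycling cells and more RNA per cell cannot be told apart.

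**Figure D2:**
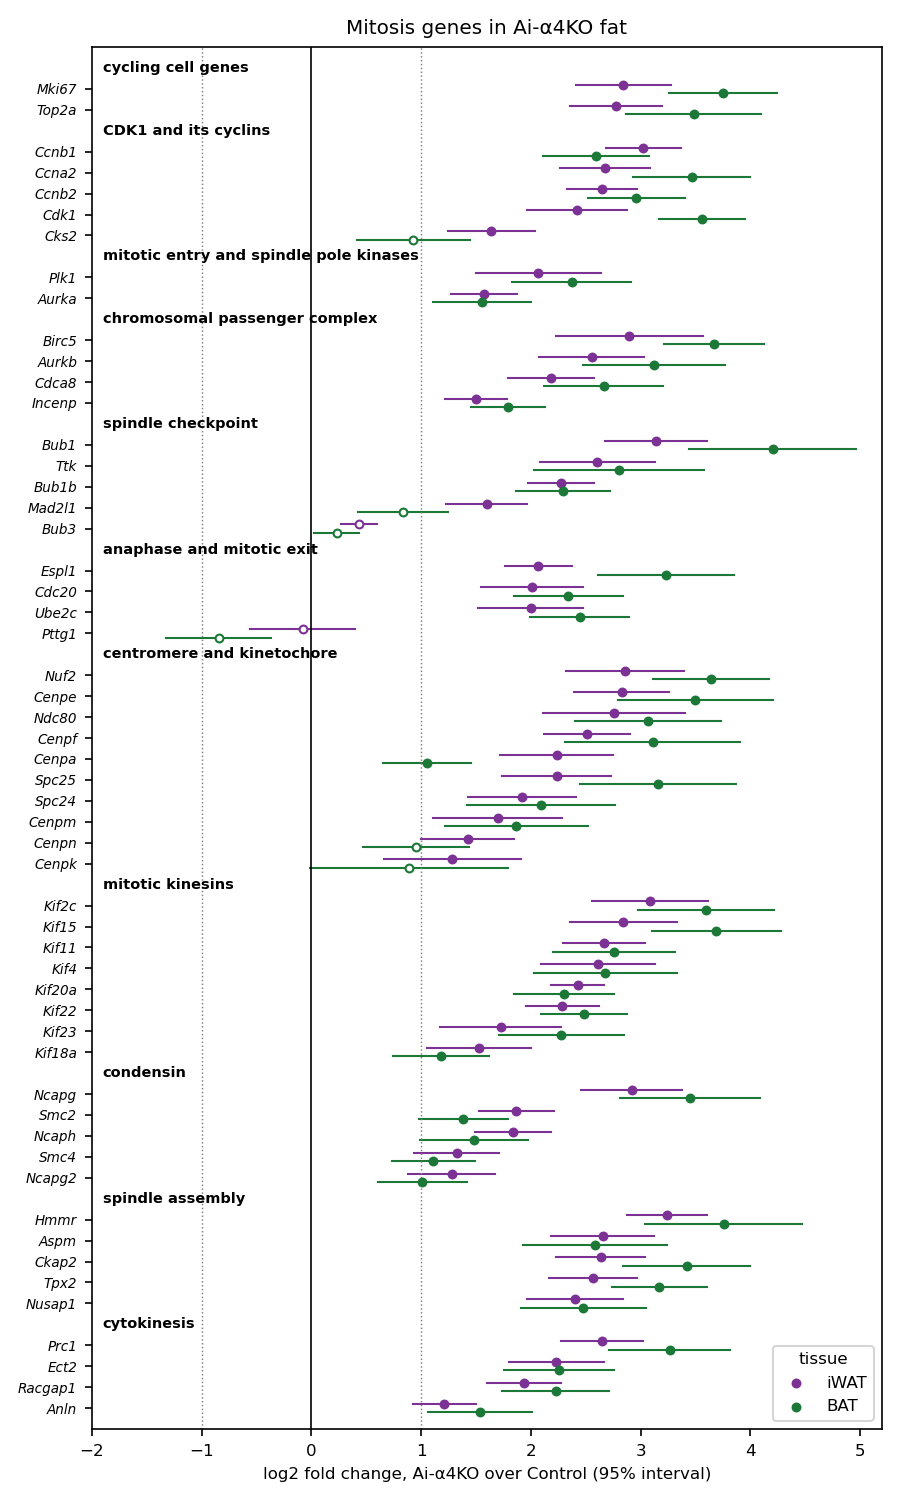
Log2 fold change of Ai-α4KO over Control (x axis) with its 95% interval (SE times a normal quantile) for each of the 54 genes, ordered by role, in iWAT (purple) and BAT (green), n = 5 libraries a group. Filled points passed an adjusted p below 0.01 with at least 2-fold change (dotted lines), and the open points are the genes that did not, among them Bub3 and Pttg1 in both tissues.

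Markers of other cells moved with genotype, and their counts stand beside the 11.3% of all genes that were higher and the 10.7% that were lower in iWAT (18.2% and 13.3% for BAT). Of 14 macrophage markers, 12 were higher in Ai-α4KO iWAT and 14 in Ai-α4KO BAT, with 0 lower and none at 0 in any library. Their summed level ran from 1669 to 2985 CPM in Control iWAT and from 9261 to 12320 CPM in Ai-α4KO iWAT. In BAT it ran from 339 to 775 CPM in Control and from 5441 to 9112 CPM in Ai-α4KO. Neutrophil markers were higher for 4 of 7 in iWAT and 7 of 7 in BAT, and T cell markers for 0 of 9 in iWAT and 6 of 8 tested in BAT. The iWAT count for T cells includes Control libraries 1 and 4, at 266 and 297 summed CPM. The other Control iWAT libraries were at 9.79 to 12.6 and Ai-α4KO iWAT at 17.4 to 60.4. Adipocyte markers were lower for 6 of 8 in each tissue, from a range of 32250 to 43370 summed CPM in Control iWAT to 12660 to 17870 in Ai-α4KO iWAT, and endothelial markers were lower for 5 of 8 in iWAT and 6 of 8 in BAT. Progenitor and stromal markers were higher for 1 of 10 in iWAT, near the share of all genes, and 4 of 10 in BAT, skeletal muscle markers for 0 and 8 of 10, B cell markers were lower for 1 of 11 in iWAT and higher for 3 of 6 tested in BAT, and epithelial markers were higher for 0 of 5 and 1 of 2 tested. B cell sums in Control iWAT were 627 and 250 CPM in libraries 1 and 4 and 15.1 to 17.0 in the others, beside 16.3 to 34.05 in Ai-α4KO iWAT. The part of any of these cell types in the rise of the mitosis genes was not tested.

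The summed level was taken in each library for the 52 mitosis genes other than Bub3 and Pttg1. These 2 met the thresholds in neither depot, so the sum holds only genes already called higher in iWAT. In Control iWAT it was 273, 248, 244, 328 and 260 CPM in libraries 1 to 5, and in Ai-α4KO iWAT 858, 1285, 1352, 1196 and 1504 CPM. The BAT sums were 106, 160, 118, 153 and 117 CPM in Control and 648, 623, 721, 566 and 410 CPM in Ai-α4KO. The genotypes did not overlap in either tissue, and the ratio of the means was 4.58 in iWAT and 4.54 in BAT. With all 54 genes in the sum this ratio was 3.81 in iWAT and 2.78 in BAT. The ratio of the means for the macrophage sum was 4.14 in iWAT and 13.9 in BAT, and without the marker Lyz2 it was 3.27 and 10.9. Ai-α4KO iWAT library 1, with the muscle markers, was lowest of its group, and Ai-α4KO BAT library 5 was lowest of its own. Without Ai-α4KO iWAT library 1, 52 genes were higher in Ai-α4KO iWAT, without Control iWAT libraries 1 and 4 51 were, and without Ai-α4KO BAT library 5 the BAT count was 48.

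**Figure D3:**
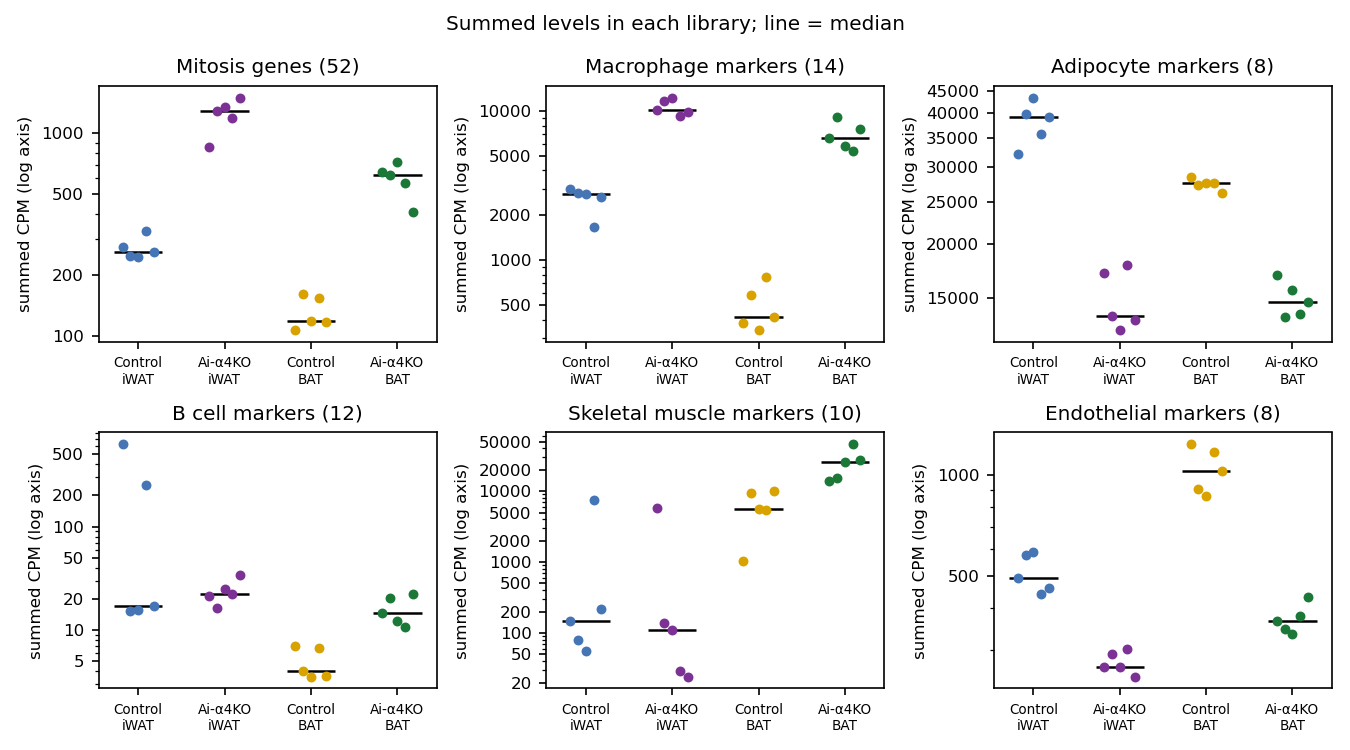
Summed CPM (y axis, log scale) in each library of the 4 groups, with a line at the median, for the 52 mitosis genes without Bub3 and Pttg1 and for 5 lists of cell type markers. Mitosis genes and macrophage markers are higher in all 5 Ai-α4KO libraries of each tissue than in all 5 Controls, and Control iWAT libraries 1 and 4 stand apart for B cell markers.

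Both genes that mark cycling cells rose. Mki67 encodes Ki-67, which coats mitotic chromosomes. Its level was 20.4, 15.4, 14.4, 25.03 and 20.3 CPM in the 5 Control iWAT libraries and 80.2, 159, 151, 135 and 165 CPM in Ai-α4KO iWAT. In BAT it was 2.46, 5.83, 3.26, 5.26 and 5.06 CPM in Control and 66.1, 67.2, 70.9, 59.6 and 39.2 CPM in Ai-α4KO. The lowest Ai-α4KO library of each tissue, library 1 in iWAT and library 5 in BAT, was still well above the highest Control. Mki67 rose on the log2 scale by 2.84 ± 0.22 in iWAT (adjusted p = 3.9e-06, edgeR) and 3.75 ± 0.25 in BAT (adjusted p = 2.0e-07, edgeR). Top2a, the topoisomerase that untangles sister DNA before segregation, moved alike, from 9.50 to 17.6 CPM in Control iWAT to 54.1 to 105 CPM in Ai-α4KO iWAT, and from 1.46 to 4.62 to 18.5 to 44.8 CPM in BAT. Its log2 fold changes were 2.78 ± 0.21 and 3.48 ± 0.31.

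Of CDK1, its cyclins and its cofactor Cks2, 5 of 5 rose in iWAT and 4 of 5 in BAT. Cdk1, the kinase that starts mitosis, was at 4.24, 5.19, 5.33, 9.55 and 8.41 CPM in Control iWAT and at 28.6, 37.5, 39.9, 30.01 and 40.1 CPM in Ai-α4KO iWAT. BAT had 1.18, 1.25, 1.27, 2.05 and 1.43 CPM in Control and 19.2, 16.6, 21.2, 16.1 and 14.3 CPM in Ai-α4KO. No libraries of the genotypes overlapped, and Cdk1 rose on the log2 scale by 2.42 ± 0.23 in iWAT (adjusted p = 1.2e-05, edgeR) and 3.56 ± 0.20 in BAT (adjusted p = 7.3e-08, edgeR). The cyclins that activate it followed: Ccnb1 by 3.03 ± 0.17 and 2.59 ± 0.25, Ccnb2 by 2.65 ± 0.16 and 2.96 ± 0.23, and Ccna2 by 2.67 ± 0.21 and 3.47 ± 0.27 (log2 in iWAT, then BAT). Ccna2 had counts that were not whole in all 20 libraries. Cks2, which binds CDK1 and aids its substrate choice, rose by 1.64 ± 0.20 in iWAT. In BAT its log2 difference was 0.93 ± 0.26 (adjusted p = 8.4e-03, edgeR), short of 2-fold, from 2.35 to 7.98 CPM in Control and 8.19 to 13.2 CPM in Ai-α4KO.

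Both mitotic kinases rose in both depots. Plk1, which drives spindle pole maturation and mitotic entry, ranged from 0.93 to 2.73 CPM in Control iWAT and 5.54 to 8.14 CPM in Ai-α4KO iWAT, a log2 fold change of 2.07 ± 0.29, and rose by 2.37 ± 0.28 in BAT. Aurka, the spindle pole Aurora kinase, rose by 1.57 ± 0.15 and 1.56 ± 0.23. The chromosomal passenger complex, which corrects faulty attachments, rose in all 4 subunits in both tissues. Its kinase Aurkb rose by 2.55 ± 0.25 and 3.12 ± 0.33, its subunit Birc5 (survivin) by 2.90 ± 0.34 and 3.67 ± 0.23, borealin (Cdca8) by 2.18 ± 0.20 and 2.67 ± 0.28, and its scaffold Incenp by 1.499 ± 0.14 and 1.79 ± 0.17. On the length-scaled FPKM of the deposited table, the ratio of Aurkb to Aurka had a median of 0.61 in iWAT of Control mice and 1.42 in that of Ai-α4KO mice, while BAT had 0.33 and 1.08. These ranges did not overlap between genotypes, from 0.45 to 1.03 against 1.09 to 1.70 in iWAT and from 0.20 to 0.50 against 0.83 to 1.12 in BAT. Of the other 3 ratios computed, Cdc20 over Bub3 was also higher in Ai-α4KO fat without overlap in either depot. Smc4 over Ncaph was lower without overlap in iWAT, from 5.21 to 6.97 against 3.22 to 5.08, but overlapped in BAT, from 4.90 to 11.4 against 3.79 to 6.88. Ccnb1 over Ccnb2 overlapped in both, from 0.49 to 0.83 against 0.78 to 1.07 in iWAT and from 0.67 to 2.04 against 0.78 to 1.08 in BAT.

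The spindle checkpoint was split. Bub1, a checkpoint kinase at the kinetochore, had one of the steepest rises of the list. It was at 1.36, 1.46, 1.62, 2.08 and 1.82 CPM in Control iWAT and at 9.06, 16.2, 16.2, 12.1 and 20.3 CPM in Ai-α4KO iWAT, a log2 fold change of 3.14 ± 0.24 (adjusted p = 3.7e-06, edgeR). In BAT it was at 0.05, 0.31, 0.36, 0.42 and 0.56 CPM in Control, where library 1 held 1 count, and at 7.05, 6.42, 8.98, 5.31 and 5.27 CPM in Ai-α4KO, a log2 fold change of 4.20 ± 0.39 (adjusted p = 2.3e-06, edgeR). This was the largest estimate of the 54 genes in BAT, and it rests on Control counts of 1 to 14. Bub1b (BubR1), part of the inhibitor that blocks the anaphase-promoting complex, rose by 2.27 ± 0.15 and 2.30 ± 0.22, and Ttk (Mps1), the kinase at the head of the checkpoint, by 2.61 ± 0.27 and 2.81 ± 0.40. Mad2l1, the MAD2 protein of the same inhibitor, rose by 1.60 ± 0.19 in iWAT and had a log2 difference of 0.83 ± 0.21 in BAT (adjusted p = 4.2e-03, edgeR), below 2-fold. Bub3, the partner of both BUB kinases, also takes part in interphase processes. It was at 58.2, 52.8, 61.2, 54.4 and 51.7 CPM in Control iWAT and at 81.4, 81.2, 70.5, 70.3 and 73.9 CPM in Ai-α4KO iWAT. These groups did not overlap, yet the log2 difference was only 0.43 ± 0.09 (adjusted p = 1.3e-03, edgeR). In BAT Bub3 ranged from 41.3 to 56.6 CPM in Control and from 54.7 to 66.9 CPM in Ai-α4KO, and its log2 difference was 0.23 ± 0.10 (adjusted p = 0.069, edgeR).

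**Figure D4:**
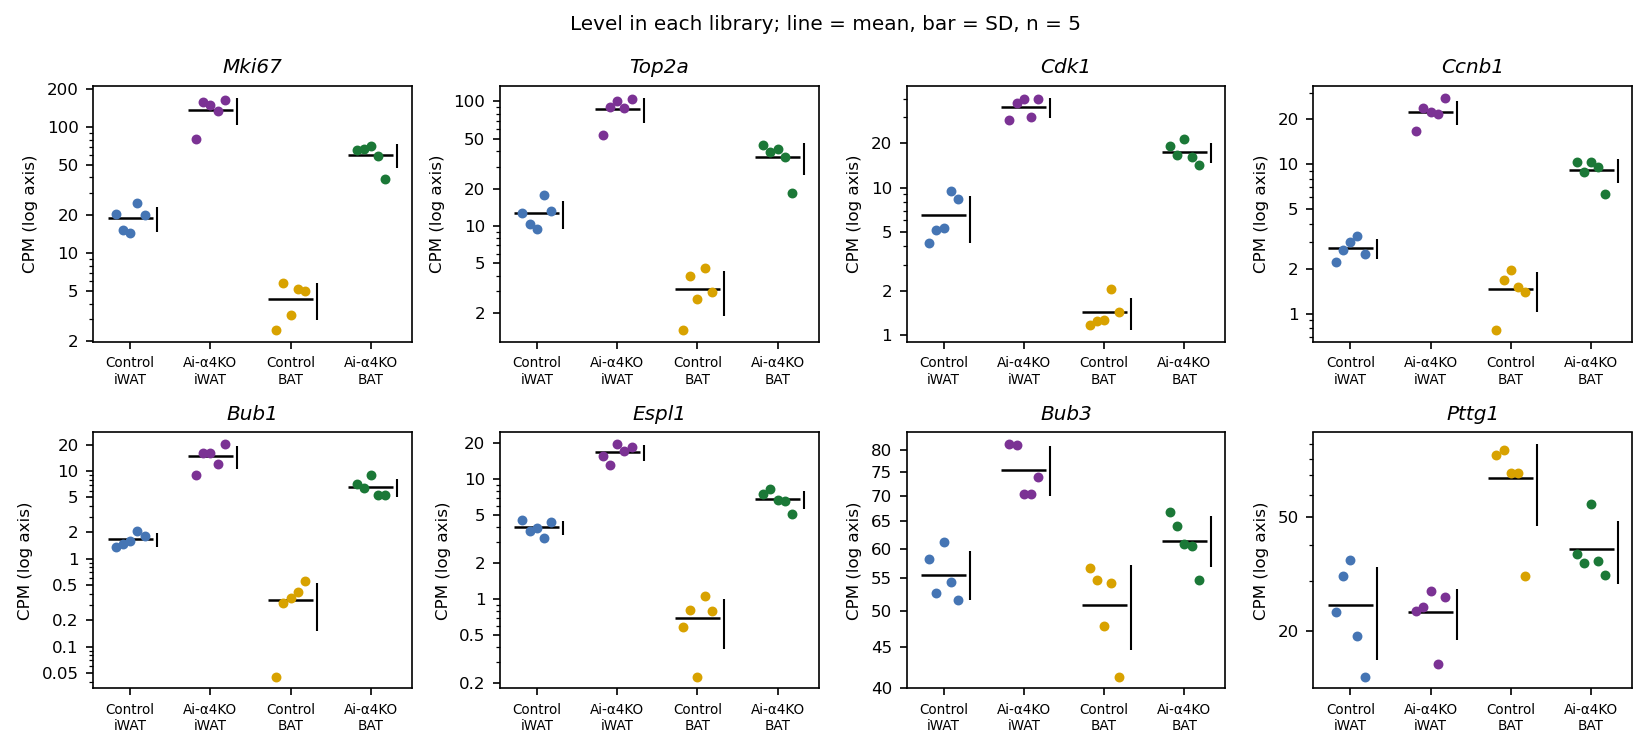
CPM (y axis, log scale) in each of the 5 libraries of the 4 groups for 8 genes, with the mean as a line and the SD as a bar. Mki67, Top2a, Cdk1, Ccnb1, Bub1 and Espl1 are higher in every Ai-α4KO library than in every Control of the same tissue, Bub3 differs little, and Pttg1 is highest in Control BAT.

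Of the anaphase genes, 3 of 4 rose in each depot. Cdc20, which activates the anaphase-promoting complex, rose by 2.01 ± 0.24 in iWAT and 2.34 ± 0.25 in BAT, and Ube2c, its ubiquitin-conjugating enzyme, by 2.0 ± 0.24 and 2.44 ± 0.23. Espl1, the separase that cuts cohesin, was at 4.60, 3.70, 3.94, 3.27 and 4.40 CPM in Control iWAT and at 15.7, 13.1, 19.7, 17.2 and 18.4 CPM in Ai-α4KO iWAT. In BAT it was at 0.59, 0.82, 0.23, 1.06 and 0.80 CPM in Control and at 7.48, 8.26, 6.69, 6.57 and 5.13 CPM in Ai-α4KO. The genotypes did not overlap, with log2 fold changes of 2.07 ± 0.16 and 3.23 ± 0.32.

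Pttg1, securin, which inhibits separase until anaphase, was the other gene that did not meet the thresholds in either depot. It was at 23.4, 31.2, 35.6, 19.2 and 13.9 CPM in Control iWAT and at 23.5, 24.3, 27.7, 15.4 and 26.3 CPM in Ai-α4KO iWAT, groups that overlapped in full, with a log2 difference of -0.08 ± 0.25 (adjusted p = 0.80, edgeR) whose sign turned without normalization factors, on the FPKM values and with some single libraries left out, though not with upper-quartile normalization. In BAT it was at 82.3, 85.6, 71.2, 71.3 and 31.3 CPM in Control and at 37.3, 34.5, 55.6, 35.3 and 31.5 CPM in Ai-α4KO. Control library 5 lay just below the lowest Ai-α4KO library, while the other 4 Control libraries lay above all of them. The log2 difference was -0.85 ± 0.24 (adjusted p = 9.6e-03, edgeR), short of 2-fold, and it passed the thresholds as lower without Control BAT library 5 (-1.04) or without Ai-α4KO BAT library 3 (-1.02). Its counts were not whole in 40% of libraries.

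All 10 centromere and kinetochore genes rose in iWAT and 8 in BAT. Nuf2, of the NDC80 complex that grips microtubules, was at 1.89 to 3.88 CPM in Control iWAT and 10.5 to 23.1 CPM in Ai-α4KO iWAT, a log2 fold change of 2.86 ± 0.27, and rose by 3.64 ± 0.27 in BAT. Its partners Ndc80, Spc24 and Spc25 rose by 2.76 ± 0.33, 1.92 ± 0.25 and 2.24 ± 0.25 in iWAT and by 3.07 ± 0.34, 2.10 ± 0.34 and 3.16 ± 0.36 in BAT. The motor Cenpe rose by 2.83 ± 0.22 and 3.50 ± 0.36. Cenpa, the histone H3 variant that marks centromeres, was at 5.06, 2.14, 3.27, 4.28 and 2.64 CPM in Control iWAT and at 10.6, 16.0, 18.7, 16.3 and 21.1 CPM in Ai-α4KO iWAT. Levels in BAT were 6.60, 5.52, 5.30, 4.83 and 5.30 CPM in Control and 8.70, 8.56, 15.3, 10.97 and 15.04 CPM in Ai-α4KO. The log2 fold change was thus 2.24 ± 0.26 in iWAT and 1.06 ± 0.21 in BAT, and the latter fell below 2-fold without Ai-α4KO BAT library 3 (0.93) or library 5 (0.94). Of the proteins that bind the centromere throughout the cycle, Cenpn had log2 differences of 1.43 ± 0.22 and 0.95 ± 0.25, the latter below 2-fold. Cenpk, of the same network, rose by 1.29 ± 0.32 in iWAT (adjusted p = 5.3e-03, edgeR) and differed by 0.89 ± 0.46 in BAT (adjusted p = 0.11, edgeR). Its counts were fractional in all 20 libraries, and its iWAT call was lost without any one of Control libraries 1, 2, 3 or 5 or Ai-α4KO libraries 2, 3 or 5 (adjusted p of 0.011 to 0.017, edgeR).

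All 8 mitotic kinesins rose in both tissues. Kif2c, which removes tubulin at faulty attachments, rose the most in iWAT, from 1.16 to 2.32 CPM in Control to 9.97 to 24.8 CPM in Ai-α4KO, a log2 fold change of 3.08 ± 0.27, and by 3.60 ± 0.32 in BAT. Kif15 and Kif11, motors that keep spindle poles apart, rose by 2.84 ± 0.25 and 2.67 ± 0.19 in iWAT and by 3.69 ± 0.30 and 2.76 ± 0.28 in BAT. Kif22, a chromosome arm motor, rose by 2.29 ± 0.17 and 2.49 ± 0.20. The smallest change was that of Kif18a, which dampens chromosome movement, with 1.53 ± 0.24 and 1.18 ± 0.22.

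The 5 condensin genes of the list rose in both tissues to unlike degrees. Other condensin subunits stood in a further list given below, where Ncapd2 met the thresholds in neither tissue and Ncapd3 was lower in BAT. Ncapg, a subunit of condensin I, was at 1.97, 2.02, 1.54, 2.87 and 2.37 CPM in Control iWAT and at 10.3, 16.5, 17.2, 15.7 and 22.3 CPM in Ai-α4KO iWAT, a log2 fold change of 2.92 ± 0.23, with 3.45 ± 0.32 in BAT. Ncapg2, its counterpart in condensin II, rose by 1.28 ± 0.20 in iWAT and 1.01 ± 0.21 in BAT, where it fell below 2-fold without Control library 1 or 5 or Ai-α4KO library 1 or 2 (0.843 to 0.996). The shared ATPases Smc4 and Smc2 rose by 1.32 ± 0.20 and 1.87 ± 0.18 in iWAT and by 1.11 ± 0.19 and 1.38 ± 0.21 in BAT, with Smc4 in BAT below 2-fold without Ai-α4KO library 3 (0.97). Smc4 was already at 33.8 to 52.9 CPM in Control iWAT.

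All 5 spindle assembly and all 4 cytokinesis genes rose in both tissues. Hmmr, a microtubule-binding protein of the spindle, had the largest estimate of the list in iWAT. It was at 1.25, 1.74, 1.69, 1.71 and 1.41 CPM in Control iWAT and at 10.2, 14.9, 16.2, 15.5 and 17.3 CPM in Ai-α4KO iWAT. BAT libraries were at 0.41, 0.63, 0.23, 0.46 and 0.64 CPM in Control and at 7.78, 7.41, 8.76, 6.60 and 2.71 CPM in Ai-α4KO. Library 5 of Ai-α4KO BAT stood well under the other 4 and still above all Controls, and the log2 fold changes were 3.24 ± 0.19 (adjusted p = 1.7e-06, edgeR) and 3.76 ± 0.36 (adjusted p = 3.3e-06, edgeR). Tpx2, which turns on Aurora A at the spindle, rose by 2.57 ± 0.20 and 3.17 ± 0.22, and Nusap1, which bundles spindle microtubules, by 2.40 ± 0.22 and 2.48 ± 0.29. Prc1, which bundles the midzone before the cell divides, rose by 2.65 ± 0.19 and 3.27 ± 0.28. Anln, the anillin scaffold of the contractile ring, had the smallest rise of those that met the thresholds in iWAT, at 1.21 ± 0.15, with 1.54 ± 0.24 in BAT.

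The knockout effects in the depots were compared as an interaction over all 20 libraries. The estimate was larger in BAT for 39 of the 54 genes, where 50.4% of 15230 genes had an estimate above 0. By edgeR's quasi-likelihood test 0 genes of the list passed an adjusted p below 0.01 (4.86% of all genes), 3 passed below 0.05 (15.1% of all genes), 12 had an unadjusted p below 0.05 (31% of all genes), and DESeq2 called 3 below an adjusted p of 0.01 (10.8% of all genes). The log2 fold change of Cdk1 was larger in BAT by 1.17 ± 0.30 (adjusted p = 0.014, edgeR) and that of Espl1 by 1.19 ± 0.34 (adjusted p = 0.023, edgeR), while Cenpa had the opposite sign at -1.15 ± 0.33 (adjusted p = 0.025, edgeR). Cdk1 passed 0.01 without Control iWAT library 1 or Control BAT library 4 (adjusted p = 0.0035 and 0.0065, edgeR). The interaction of Mki67 was 0.94 ± 0.33 (adjusted p = 0.061, edgeR) and that of Bub1 1.10 ± 0.44 (adjusted p = 0.094, edgeR). These fell short of the threshold. The 95% interval for Mki67, made from SE with a normal quantile and so narrower than the test implies, ran from 0.29 to 1.58. The direction turned by limma on log2(FPKM + 1), a scale that compresses low values, for Espl1 (-0.33), Bub1 (-0.50) and Mki67 (-0.12).

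Without the knockout, the list was lower in BAT than in iWAT. In Control animals 39 genes were lower in BAT and 1 was higher, where 15.4% of all genes were lower and 7.34% higher, and the median log2 difference was -1.498. The genes lower in BAT numbered 25 where every library needed 10 counts and 6 by limma on log2(FPKM + 1). The largest differences were those of Espl1 (-2.49 ± 0.26), Bub1 (-2.26 ± 0.34), Cdk1 (-2.18 ± 0.22) and Mki67 (-2.12 ± 0.25). Bub3 (-0.13 ± 0.09), Cks2 (-0.01 ± 0.24) and Mad2l1 (-0.13 ± 0.20) did not meet the thresholds between depots. The 1 gene higher in BAT was Pttg1, by 1.47 ± 0.27 (adjusted p = 1.4e-04, edgeR), while Cenpa at 0.66 ± 0.24 (adjusted p = 0.025, edgeR) did not pass. Control iWAT libraries 1 and 4, with the B cell and T cell markers, take part in this comparison, and without them 2 genes were higher in BAT, Pttg1 and Cenpa (1.04). Markers of other cells moved with the depot as well, where 15.4% of all genes were lower and 7.34% higher in Control BAT. Lower there were 14 of 14 macrophage markers (339 to 775 against 1669 to 2985 summed CPM), 7 of 10 progenitor and stromal markers (1548 to 2529 against 3801 to 8284 summed CPM), 11 of 11 B cell and 9 of 9 T cell markers, 3 of 7 neutrophil, 3 of 8 adipocyte and 3 of 4 epithelial markers. Endothelial markers were higher for 4 of 8, and 0 of 10 skeletal muscle markers passed. The part of these cells in the difference was not tested.

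In Ai-α4KO animals 36 genes were lower in BAT (4.09% of all genes) and 0 higher (8.54%). The median log2 difference was -1.12, beside -0.11 for all genes. At an unadjusted p below 0.05, 1 gene, Pttg1, was higher by edgeR (21.7% of all genes), by 0.73 ± 0.26 (adjusted p = 0.033), short of the thresholds. The count of lower genes fell to 10 without Ai-α4KO BAT library 5, which was the lowest of its group for 46 of the 54 genes, to 14 without Ai-α4KO iWAT library 5, the highest of its group for 44, and to 21 to 23 without Ai-α4KO iWAT library 2, 3 or 4. It was 17 where every library needed 10 counts and 18 by limma on log2(FPKM + 1). Of the cell markers tested between these groups, 3 of 10 progenitor and stromal, 2 of 4 epithelial, 1 of 8 adipocyte and 1 of 11 B cell markers were lower in BAT, while 2 of 8 endothelial and 1 of 10 skeletal muscle markers were higher. The summed skeletal muscle level ran from 13880 to 46080 CPM in Ai-α4KO BAT and from 24.2 to 5818 CPM in Ai-α4KO iWAT. For macrophage, neutrophil and T cell markers 0 passed, with macrophage sums of 5441 to 9112 CPM in BAT and 9261 to 12320 CPM in iWAT. Their part in the difference was not tested. The ratio of iWAT to BAT in the summed level of the 52 genes was 2.07 in Control and 2.09 in Ai-α4KO mice. These near-equal ratios depend on leaving out Bub3 and Pttg1. With all 54 genes summed, Control mice had a ratio of 1.40, against 1.93 for Ai-α4KO mice.

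**Figure D5:**
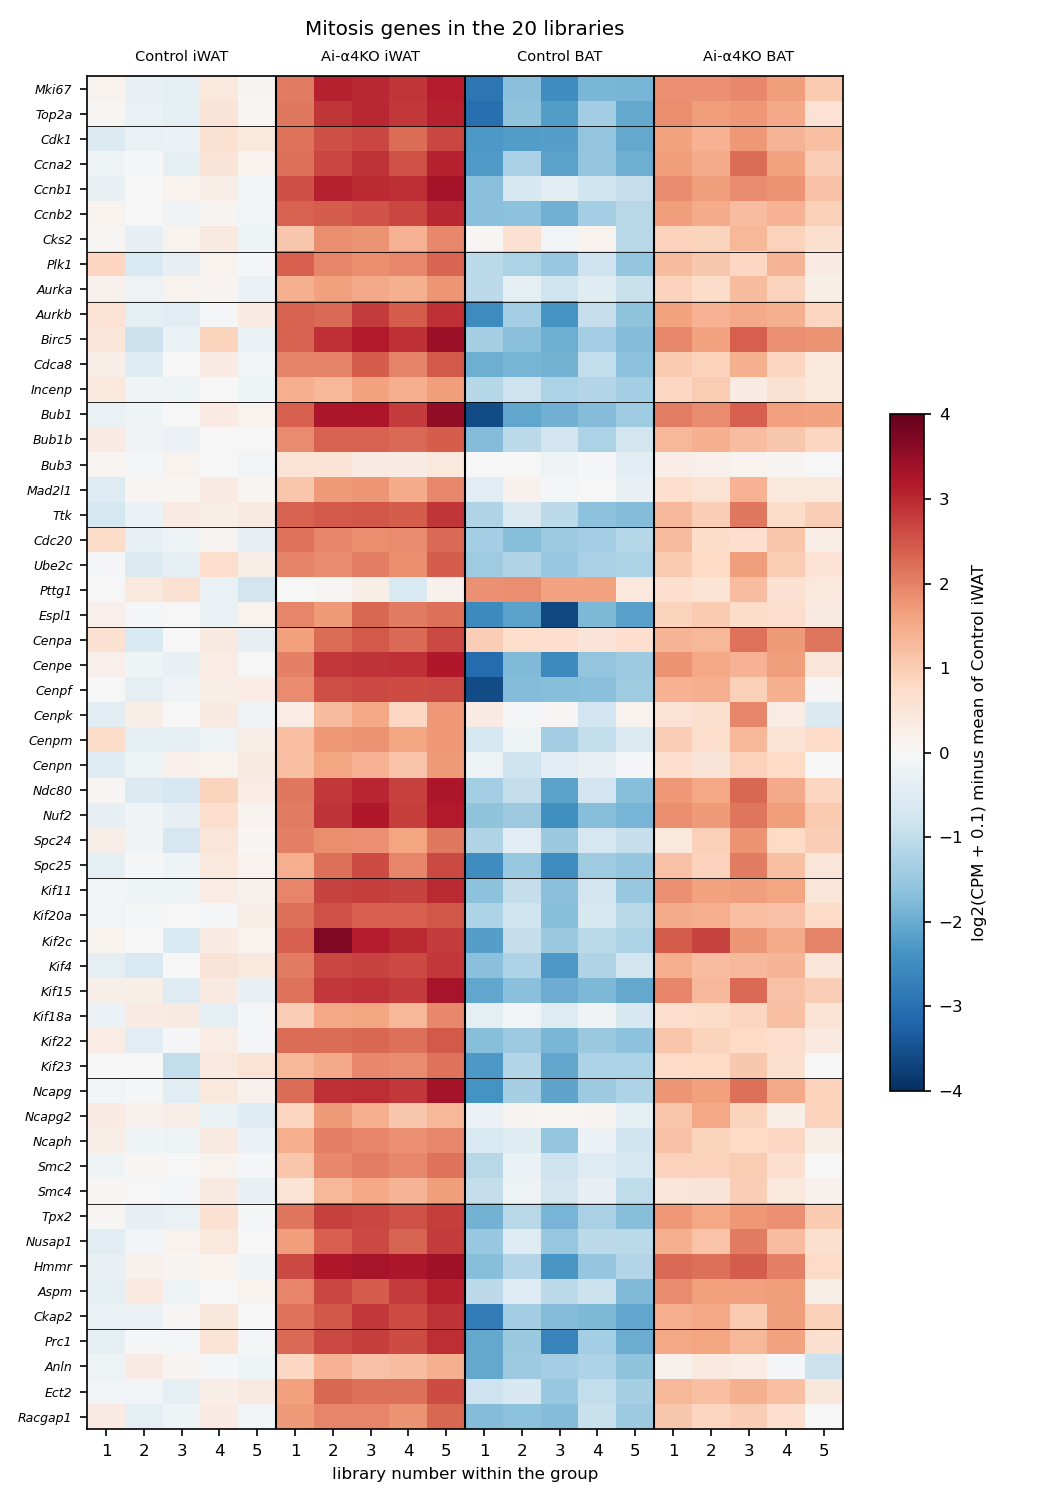
Log2(CPM + 0.1) of the 54 genes (rows, grouped by role) in the 20 libraries (columns), as the difference from the mean of Control iWAT, red for higher and blue for lower. Ai-α4KO libraries are red for nearly all rows, Control BAT is blue except for rows such as Pttg1 and Cenpa, which are red, and Bub3, which is near white, and Ai-α4KO BAT library 5 is paler than the others of its group.

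Levels between genes were compared on FPKM, which divides by transcript length. In Control iWAT the highest means were those of Bub3 at 24.3 ± 1.5 FPKM (SD, n = 5) and Pttg1 at 12.6 ± 4.0, followed by Smc4 at 9.28 ± 1.85 and Cks2 at 6.83 ± 1.38, where Pttg1 and Smc4 lay within their spread. In Control BAT the order began with Pttg1 at 30.4 ± 9.3 and Bub3 at 19.2 ± 2.4, and the next, Cks2 at 5.83 ± 2.11 and Smc4 at 5.18 ± 1.29, did not differ beyond their spread. The lowest levels there were those of Cenpf at 0.05 ± 0.02 and Bub1 at 0.06 ± 0.03. In Ai-α4KO iWAT Bub3 at 35.99 ± 2.94 led before Smc4 at 25.3 ± 6.6, Cks2 at 23.3 ± 5.3, Ube2c at 17.7 ± 2.9 and Ccna2 at 16.9 ± 3.7, of which neighbours lay within their spread. Bub3 and Pttg1 together made up a median of 23.0% of the CPM of the 54 genes in iWAT of Control mice and 6.77% in that of Ai-α4KO mice, while the shares in BAT were 46.8% and 13.9%. In Control BAT 15 genes had a library under 10 counts, so fold changes in that tissue rest on fewer reads than in iWAT, where the lowest count was 10.

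Other genes of the division cycle were taken from lists of related function, which were likewise chosen with earlier results of these data known. Of 53 further kinetochore, spindle and cytokinesis genes, 45 rose and 0 fell in iWAT, with a median log2 fold change of 1.98. BAT had 50 of these tested, of which 37 rose and 1 fell, with a median of 2.21. Dlgap5, a spindle protein, rose by 3.04 ± 0.21 and 3.70 ± 0.46, and Melk, a kinase of dividing cells, by 2.83 ± 0.18 and 3.92 ± 0.24. The effect on Melk differed between depots by 1.12 ± 0.26 (BAT minus iWAT, adjusted p = 7.8e-03, edgeR), and that on Ncapd2, a condensin I subunit, by -0.92 ± 0.16 (adjusted p = 1.3e-03, edgeR), from 0.44 ± 0.10 in iWAT to -0.51 ± 0.13 in BAT, both below 2-fold. The lower gene was Ncapd3 of condensin II, at -1.0 ± 0.15 in BAT and -0.33 ± 0.10 in iWAT. Of 23 transcription regulators of the cell cycle, 2 rose in iWAT and 4 in BAT, shares near the 11.3% and 18.2% of all tested genes that rose, so the count sets the regulators apart in neither depot. Among them Foxm1, an activator of G2 and M phase genes, rose by 1.79 ± 0.14 and 1.90 ± 0.26, and E2f8, a repressor of the E2F family, by 2.72 ± 0.22 and 3.37 ± 0.32. E2f1 rose in BAT by 2.20 ± 0.26 and had a log2 difference of 0.88 ± 0.17 in iWAT, below 2-fold, and this effect differed between depots by 1.36 ± 0.30 (adjusted p = 6.3e-03, edgeR). Mybl2, the MYB partner of MuvB, had 0.86 ± 0.21 in iWAT and 0.04 ± 0.26 in BAT, and did not meet the thresholds.

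Subunits of the anaphase-promoting complex and of cohesin, which serve cells outside mitosis as well, passed the thresholds in 1 case. Of 15 subunits and activators of the complex, 0 passed in iWAT, with a median log2 difference of 0.12, and 1, Anapc13, was lower in BAT at -1.01 ± 0.16. Of 9 cohesin genes, 0 passed in either tissue, with medians of 0.21 and -0.22. Of 15 tested cyclins, kinases and inhibitors of G1, iWAT had 2 that rose and 2 that fell, while in BAT 0 rose and 2 fell. Among all genes tested in iWAT 11.3% rose and 10.7% fell, and for BAT the shares were 18.2% and 13.3%. With so few G1 genes the counts say nothing particular to them. The CDK inhibitor Cdkn1a (p21) and the cyclin Ccne2 rose in iWAT by 1.56 ± 0.26 and 1.51 ± 0.24 (log2). In BAT, Cdkn1a had a log2 difference of -0.23 ± 0.29, and its effect differed between the depots by -1.76 ± 0.42 (BAT minus iWAT, adjusted p = 9.2e-03, edgeR). Ccne2 had 0.77 ± 0.27 in BAT, short of the thresholds, and its difference between depots did not pass (adjusted p = 0.20, edgeR). For Cdk2, at 0.24 ± 0.10 in iWAT and -0.51 ± 0.13 in BAT, the difference between depots was -0.71 ± 0.15 (adjusted p = 5.6e-03, edgeR). The inhibitors Cdkn1c and Cdkn2c fell in both tissues, in iWAT by 2.35 and 1.32 and in BAT by 1.34 and 1.68 (log2).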

How the data were processed

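RNA from iWAT and BAT of 5 Control and 5 Ai-α4KO libraries per tissue was analysed, from stranded mRNA libraries. Submitters' processing notes list bcl2fastq 2, STAR 2.5.3a and build mm10; the counting tool, annotation release and test are not given in the sources used here. The authors deposited an expected count per gene and library, not normalized, of which 76.6% of nonzero values are whole, and an FPKM value. Groups came from the labels.

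Expected counts were rounded and fitted in R 4.3.3 with edgeR 4.0.16 (filterByExpr, TMM, quasi-likelihood test, Benjamini-Hochberg over all genes tested), within each tissue for Ai-α4KO against Control, and over all 20 libraries for the interaction and the depots. Calls needed an adjusted p below 0.01 and at least 2-fold change (no fold for the interaction). SE is the log2 fold change divided by the root of its F statistic. The 95% intervals are the estimate plus and minus SE times a normal quantile, and are narrower than the quasi-likelihood test implies. CPM used TMM over all libraries. The steps were tested on simulated data.

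Alternatives were DESeq2 1.42.0, limma 3.58.1 on log2(FPKM + 1) and log2(FPKM + 0.1), other normalizations, filters and thresholds, and left-out libraries. The comparison of depots in Ai-α4KO mice was added after the data were seen. The 54 genes and all lists were chosen with earlier results of these data known. Any of the 54 genes could be named, with fuller statistics for Mki67, Top2a, Cdk1 and, in each role, the genes with the highest mean FPKM and the largest and smallest change in iWAT; further values (Aurkb, Mad2l1, Cenpn and others of a role) and the promoters shown were chosen after values were seen. Symbols of other lists were matched through RefSeq synonyms, and 1 marker, Ly6g, was not matched. Replicate numbers did not pair the samples.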

Additional observations from a re-analysis of the deposited data

Results flagged for a closer look

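Single libraries stood apart from the other 4 of their group in 23 of 220 sets of 5 libraries, by the gap to the nearest library as a share of the range of the group, with a limit of 0.71. Chance alone gives about 1 in 20 independent sets. These sets share the same libraries and hold genes that move together, so no excess over chance can be read from the count. Ai-α4KO iWAT library 1 was the lowest by this measure for Mki67 (0.726), Top2a (0.737), Bub1b (0.725), Cenpf (0.901), Kif11 (0.732), Kif4 (0.72), Smc2 (0.758) and Hmmr (0.723). It held 5818 summed CPM of skeletal muscle markers, against 24.3 to 140 in the other 4, and without it 52 mitosis genes were higher in Ai-α4KO iWAT, as with it. Ai-α4KO BAT library 5 was the lowest for Top2a (0.749), Aurkb (0.721), Kif11 (0.813), Kif4 (0.787), Hmmr (0.757), Aspm (0.842), Prc1 (0.725) and Ect2 (0.764), and without it 48 genes were higher in Ai-α4KO BAT, again the count with it. The others were Bub1 in Control BAT library 1, lowest (0.715), Mad2l1 in Ai-α4KO BAT library 3, highest (0.713), Ttk in Ai-α4KO iWAT library 5, highest (0.753), Pttg1 in Ai-α4KO iWAT library 4, lowest (0.72), Pttg1 in Control BAT library 5, lowest (0.818), Cenpf in Control BAT library 1, lowest (0.857) and Kif20a in Control iWAT library 5, highest (0.751).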

How the results depend on the processing

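The genes higher in Ai-α4KO numbered 46 to 53 in iWAT and 34 to 51 in BAT under all alternatives, the 34 where every library needed 10 counts, which left fewer genes tested. Leaving out single libraries gave 51 to 52 and 46 to 49. Genes lower in Ai-α4KO BAT numbered 1 with no fold threshold and 0 to 1 with a library left out. Genes whose knockout effect differed between the tissues numbered 3 by DESeq2 and at an adjusted p below 0.05, 1 without normalization factors, with upper-quartile normalization, with at least 10 counts in every library, by limma on log2(FPKM + 1) and without Control iWAT libraries 1 and 4, and 0 to 1 with a library left out. Genes lower in Control BAT than Control iWAT numbered 25 with at least 10 counts in every library and 6 by limma on log2(FPKM + 1), and those higher 2 without Control iWAT libraries 1 and 4. Between the Ai-α4KO depots the genes lower in BAT numbered 17 and 18 under the same settings, and 10 to 37 with a library left out. The cause of these shifts was not tested.

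The iWAT difference of Pttg1 turned to 0.0456 without normalization factors, 0.0899 and 0.0992 by limma on log2(FPKM + 1) and log2(FPKM + 0.1), 0.0186 and 0.0408 without Control iWAT library 2 or 3, and 0.0446 without Ai-α4KO iWAT library 4. On log2(FPKM + 1), which compresses low values, the interaction turned to -0.12 for Mki67, -0.15 for Top2a, -0.50 for Bub1 and -0.33 for Espl1. Without normalization factors the median of all genes shifted to 0.13 in iWAT, 0.23 in BAT and -0.23 between Control depots, and over all genes in BAT 3251 were then higher and 1265 lower, beside 2614 and 1910.

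Correlations of deviations between same-numbered samples ran from -0.45 to 0.24, and not every sample correlated best with its own number. With the replicate number as a block, 51 genes were higher in Ai-α4KO iWAT, 47 in Ai-α4KO BAT, 38 lower and 1 higher in Control BAT than Control iWAT, 35 lower between Ai-α4KO depots, and 0 differed in the interaction.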
